A study of Mus musculus with 6 samples.

Results

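Desmosomal and adherens junction genes were examined in whole newborn mouse lenses after conditional deletion of Celf1, which encodes an RNA-binding protein. The set was named as 10 genes, which are Dsp, Jup, Pkp2, Pkp4, Dsg2, Dsc2, Perp, Cdh1, Cdh2 and Ctnnb1, and was matched by symbol in a table of 13931 genes. Of these, 9 were present and all 9 had an average level above the cut-off of 1 log2 CPM (CPM, the reads of a gene scaled to a common library size), while Dsg2 was not analysed here. Dsp was chosen by its measured log2 fold-change, since it was strongly elevated in these same libraries, and the others because their proteins form junctions with it or serve the neighbouring adherens junctions, so that the question is whether Dsp rose alone or with its partners. The contrast that chose Dsp is the contrast described here. The values of the members are therefore given as a description, with no p-value for a single member.

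RNA-sequencing was performed on 3 libraries from control and 3 from Celf1cKO (mutant) mice. Every library came from its own pool of lenses, and the mice were of mixed C57BL/6 and FVB background. Celf1cKO mice carried 1 germline knockout allele (Celf1lacZKI), 1 floxed allele (Celf1flox) and the lens Cre line Pax6GFPCre, which starts in the lens placode and is also active in the pancreatic lineage. Per the labels, controls were Celf1lacZKI/+ and so share the germline knockout allele with the mutants, whereas the study's methods name Celf1flox without Cre as the usual control, so the control genotype was not settled. No group in these data was labelled wild-type. Celf1 was measured at 9.95, 9.94 and 9.34 log2 CPM in the control libraries and at 8.93, 7.66 and 7.83 log2 CPM in mutant libraries 1 to 3, with a log2 change of -1.60 (standard error 0.33, limma adjusted p = 0.0269). This call held in 1 of the 6 fits that left out a library, although all mutant values lay below all control values. Transcripts thus remained in each mutant library, and most of all in library 1. These levels are of the whole gene and also count transcripts that lack the deleted exon. Between 40694454 and 44387151 reads per library were counted on genes, and a floor of 3 reads lies at 0.0609 to 0.0807 CPM depending on the library. The lens identity of the samples was clear from Cryaa, a lens crystallin, whose level lay between 16.84 and 17.29 log2 CPM.

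Desmosomes are adhesive plaques that couple the intermediate filaments of neighbouring cells. Their cadherins, the desmogleins and desmocollins, bind plakoglobin (Jup) and plakophilins inside the cell, and these bind desmoplakin (Dsp), which holds the filaments. Adherens junctions are built in a parallel way from classical cadherins, beta-catenin (Ctnnb1) and alpha-catenins, and couple to actin. In the lens, epithelial cells carry E-cadherin (Cdh1) and N-cadherin (Cdh2), whereas the elongated fiber cells that fill the lens rely on N-cadherin.

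CELF1 protein binds GU-rich elements in the 3′ untranslated regions (UTRs) of messenger RNAs and often shortens their lifetime. The core letters TGTTTGT, written as DNA on the transcript strand and with overlapping matches counted, were therefore searched in the longest annotated 3′ UTR of each member (GENCODE M21, GRCm38). Over all genes of the table with an annotated 3′ UTR, 30% held these letters. The windows from members on chromosomes 2, 8 and 9 are shown 5′ to 3′ with the matches in capitals, because they are the places in these transcripts where such letters occur.
Pkp4 (chr2:59354568-59354594, + strand, 3′ UTR): ttttggttTGTTTGTTTGTtttttctt
Cdh1 (chr8:106668845-106668871, + strand, 3′ UTR): ccttttttTGTTTGTTTGTttctgttt
Ctnnb1 (chr9:120959615-120959637, + strand, 3′ UTR): tttaggccTGTTTGTaaatctgc
The windows of Pkp4 and Cdh1 each hold 2 overlapping matches, which join into the same 11-letter run, and that of Ctnnb1 holds 1 match. Cdh2 also held 1 match. The 3′ UTRs of Dsp (645 bases), Perp (1197 bases), Dsc2 (1781 bases), Jup (845 bases) and Pkp2 (475 bases) did not contain these letters. Among genes whose 3′ UTR was within 20% of the length of that of Dsp, 14.7% contained them. The presence of the letters is a description of the sequence and was not tested as a binding site.

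Dsp was the only member to pass all cut-offs of the comparison between groups, which required an adjusted p-value under 0.05 from limma, a log2 difference of more than 0.58 up or down, and a mean level over 1 log2 CPM. Among all genes tested, 7.39% passed. This is 1 of 9 measured members, and because Dsp was chosen for this elevation the count supports nothing further. Of the 8 partners, none passed (0 by limma on the log2 CPM values and 0 by limma voom on the recovered reads), and 2 higher and 4 lower partners had an unadjusted p-value under 0.05 in limma. At that threshold 16.3% of all genes were higher and 13.7% lower, and nothing is read from the partners' count. When replicates were paired by number (replicate block), Jup also passed, as reduced. When each library was scaled by its total reads instead, which raised the median log2 fold-change of expressed genes by 0.23, Perp and Dsc2 passed beside Dsp, as elevated, and none was reduced. The median log2 fold-change of the 8 partners was -0.19, against -0.04 over all genes.

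Dsp encodes desmoplakin, the plakin that ties the desmosomal plaque to intermediate filaments, and lies on chromosome 13 of GRCm38 from 38151294 to 38198577. Its level was -0.10, -0.42 and -0.14 log2 CPM in the control libraries and 4.56, 5.50 and 5.31 log2 CPM in mutant libraries 1 to 3. The mutant libraries thus lay far above the control libraries, and the 2 groups did not come near each other. In reads, 34, 26 and 34 were counted on Dsp in the control libraries and 1010, 2197 and 1952 in the Celf1cKO libraries. The log2 fold-change was 5.34 (standard error 0.27), or 40.5-fold, and it stayed between 5.15 and 5.62 when each library was left out in turn. By its mean level, Dsp ranked 11909th of the 13931 genes in control lenses and 3518th in Celf1cKO lenses. The lowest of the 3 mutant values was in Celf1cKO library 1, which was also the mutant library with the highest whole-gene level of Celf1. A relation between the levels of Celf1 and Dsp was not tested. An unverified gene model on the other strand, Gm10129, shares 499 of the 9659 exon bases of Dsp, and the libraries were strand-specific, but the strand setting used in counting is not given in the sources used here.

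**Figure D1:**
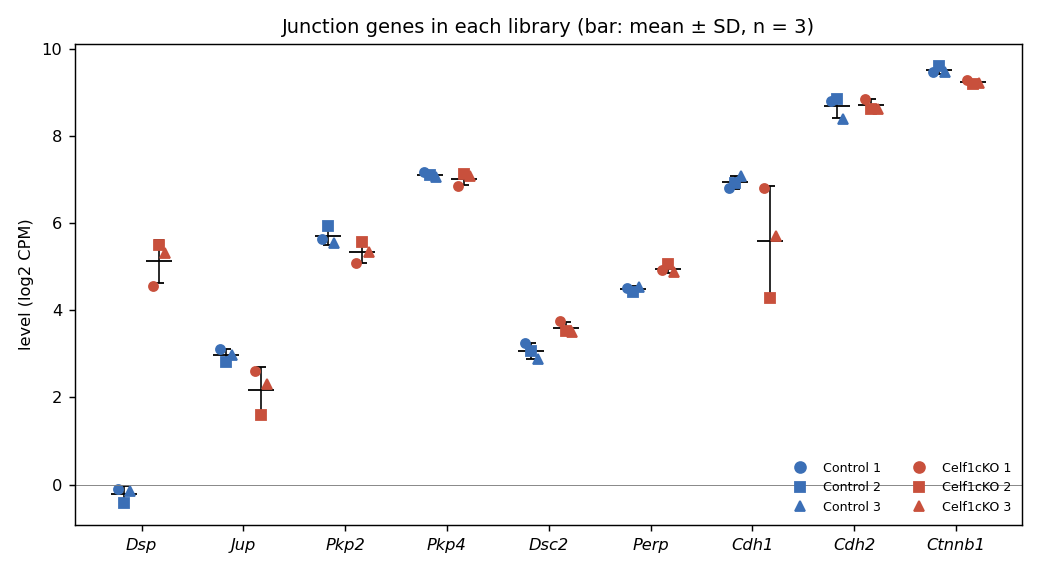
Level in log2 CPM of the 9 measured junction genes in each of the 6 libraries, with control in blue and Celf1cKO in red, and the mean ± SD of each group as a black bar (n = 3). Dsp moves from about the bottom of the plot to between 4.56 and 5.50, whereas the Celf1cKO libraries of Jup (1.60 to 2.60) lie below its control libraries, those of Dsc2 and Perp lie above theirs and those of Cdh1 spread from 4.27 to 6.79.

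Jup (chromosome 11, 100368958 to 100397763) encodes plakoglobin, the catenin shared by desmosomes and adherens junctions and the direct link between desmosomal cadherins and desmoplakin. Its level was 3.11, 2.82 and 2.96 log2 CPM in the control libraries and 2.60, 1.60 and 2.31 log2 CPM in mutant libraries 1 to 3. Each mutant library lay below each control library, which is the opposite direction to Dsp. The log2 fold-change was -0.79 (standard error 0.27), or 57.8% of the control level, and went from -1.01 without Celf1cKO library 1 to -0.51 without Celf1cKO library 2, and Jup passed all cut-offs in the former fit.

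Pkp2 (chromosome 16, 16213318 to 16272712) encodes plakophilin 2, an armadillo protein that recruits desmoplakin to the plaque. It was measured at 5.63, 5.92 and 5.54 log2 CPM in the control libraries and 5.08, 5.56 and 5.34 log2 CPM in mutant libraries. Celf1cKO library 2 lay above control library 3, so the groups overlapped, whereas within same-numbered pairs the mutant library was lower in each, by log2 differences of -0.55, -0.36 and -0.21. The log2 fold-change was -0.37 (standard error 0.15) and was -0.15 under total-count scaling. Pkp4, an armadillo relative of the plakophilins that is found at both kinds of junction, had 7.18, 7.10 and 7.05 log2 CPM in the control libraries and 6.85, 7.14 and 7.07 log2 CPM in mutant libraries. Its groups overlapped as well, with a log2 fold-change of -0.09 (standard error 0.10) that became 0.13 under total-count scaling.

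The measured genes for desmosomal membrane proteins, Dsc2 and Perp, had slightly higher values in mutant lenses. Dsc2, which encodes the desmocollin found in most desmosome-bearing tissues, had 3.26, 3.06 and 2.89 log2 CPM in the control libraries and 3.76, 3.52 and 3.50 log2 CPM in mutant libraries. All mutant libraries lay above all control libraries, with a log2 fold-change of 0.52 (standard error 0.15), or 1.44-fold. Perp (chromosome 10, 18845020 to 18857073), which encodes a tetraspan membrane protein of desmosomes whose gene is a target of the p53 family, had 4.52, 4.42 and 4.53 log2 CPM in the control libraries and 4.91, 5.06 and 4.87 log2 CPM in mutant libraries. The groups were again apart, with small spread in both, and the log2 fold-change was 0.46 (standard error 0.10), or 1.38-fold. Both changes were below the fold cut-off, and without that cut-off Perp passed whereas Dsc2 did not.

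Cdh1 (chromosome 8, 106603351 to 106670246) encodes E-cadherin and was the partner with the largest difference in means. It had 6.80, 6.91 and 7.08 log2 CPM in the control libraries and 6.79, 4.27 and 5.70 log2 CPM in mutant libraries 1 to 3. Celf1cKO library 1 was level with the lowest control library, whereas library 2 was far below, so the SD was 0.14 in control and 1.26 in Celf1cKO lenses (n = 3 in each). The log2 fold-change was -1.34 (standard error 0.54) and ranged from -0.69 without Celf1cKO library 2 to -1.95 without Celf1cKO library 1, and in the latter fit Cdh1 passed all cut-offs as reduced. In whole lenses, fewer cells of a type and less RNA per cell cannot be told apart.

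The summed level of 6 lens epithelium markers was between 434 and 485 CPM in control libraries and was 347, 149 and 313 CPM in Celf1cKO libraries 1 to 3, so that library 2 was lowest for this sum and for Cdh1. Of these markers (6 of 7 listed, with Sox2 not analysed here), 2 were called reduced, beside 2.63% of all genes. Foxe3, a transcription factor of lens epithelium, had a log2 change of -2.01 (limma adjusted p = 0.0434) and Pdgfra, a growth factor receptor, one of -1.54 (limma adjusted p = 0.0497), while the other 4 had log2 fold-changes between -1.32 and -0.37 and did not pass. Each of the 6 markers, like Cdh1, had its lowest mutant value in Celf1cKO library 2. Pax6, Pdgfra, Slc38a3 and Pdpn were highest in mutant library 1, as Cdh1 was, whereas Foxe3 and Gja1 were highest in mutant library 3. Pdgfra had 5.88, 4.09 and 4.83 log2 CPM in mutant libraries 1 to 3 and 6.22 to 6.74 log2 CPM in control libraries. Gja1, which encodes a gap junction protein, had 5.20, 3.46 and 6.30 log2 CPM in mutant libraries 1 to 3 and 5.57 to 6.29 log2 CPM in control libraries. Foxe3 was called in 2 and Pdgfra in 1 of the 6 fits that left out a library. Jup was lowest in Celf1cKO library 2 as well. The part of the epithelial share in the values of Cdh1 and Jup was not tested.

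Cdh2 encodes N-cadherin, the main cadherin of fiber cells. It was measured at 8.80, 8.84 and 8.38 log2 CPM in the control libraries and 8.86, 8.63 and 8.61 log2 CPM in mutant libraries. The 2 groups covered about the same range, with a log2 fold-change of 0.02 (standard error 0.14) whose sign changed to -0.0022 under median centring, to -0.010 under quantile normalization and to -0.13 without control library 3. Per length, the level of Cdh2 was 2.27, 2.16 and 1.40 times that of Cdh1 in control libraries and 2.37, 11.6 and 4.27 times in Celf1cKO libraries 1 to 3. The difference in this cadherin ratio was thus small in Celf1cKO library 1 and large in library 2. Among 5 measured markers of lens fiber cells, Bfsp1, which encodes a beaded filament protein, had a log2 change of -1.47 (limma adjusted p = 0.0139), and the other 4 lay between -0.37 and 0.20 and did not pass. The highest of these, Bfsp2, rests on control library 3, with 8.59 log2 CPM against 11.33 and 11.56 in the other control libraries, and was -0.75 without it. The summed level of the 5 markers was 171330 to 193160 CPM in control libraries and 137700 to 143700 CPM in mutant libraries, and its part in the values of Cdh2 was not tested.

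Ctnnb1 (chromosome 9, 120929216 to 120960507) encodes beta-catenin, which links classical cadherins to alpha-catenin and also acts in Wnt signaling. It had 9.47, 9.61 and 9.46 log2 CPM in the control libraries and 9.28, 9.19 and 9.22 log2 CPM in mutant libraries. All mutant libraries were below all control libraries by a narrow margin, and the log2 fold-change was -0.28 (standard error 0.08), or 82.3% of the control level. Ulk4 on the other strand shares 759 of the 5192 exon bases of Ctnnb1, and its own log2 fold-change was -1.05. Between 117 and 230 reads were counted on Ulk4 and between 26715 and 29271 on Ctnnb1, and the part of the overlap in the value of Ctnnb1 was not tested. Under total-count scaling, which raised the median of expressed genes, the log2 fold-change of Ctnnb1 was -0.06.

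In all, 6 of the 9 members had groups that did not overlap, with Dsp, Dsc2 and Perp higher and Jup, Cdh1 and Ctnnb1 lower. For Cdh1 this rests on 6.792 log2 CPM in Celf1cKO library 1 against 6.800 in control library 1, so its groups all but touched. The count includes Dsp, which was chosen for its elevation, and is a description. Among all genes tested, 36.5% had groups that did not overlap. The partners therefore did not all share the direction of Dsp. Dsc2 and Perp, which lay higher, differed by 1.44-fold and 1.38-fold. Across the 6 libraries the Pearson correlation of log2 CPM with Dsp was 0.97 for Perp and 0.85 for Dsc2, and -0.96 for Ctnnb1, -0.83 for Jup, -0.74 for Cdh1, -0.67 for Pkp2, -0.34 for Pkp4 and -0.00025 for Cdh2. These values describe 6 libraries that fall into 2 groups and share the scaling of the table.

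**Figure D2:**
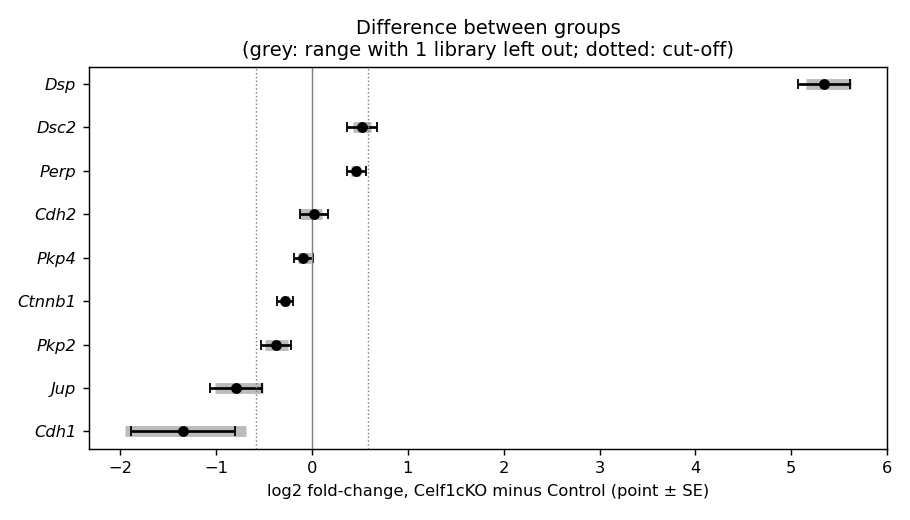
Log2 fold-change (Celf1cKO minus control) of each measured junction gene as a point with its standard error, the range with 1 library left out at a time in grey, and the cut-off of 0.58 in either direction as dotted lines. Dsp at 5.34 stands apart from the 8 partners, which lie between -1.34 and 0.52, and the widest grey range is that of Cdh1.

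Levels of different genes were compared per length, as CPM divided by the exon length in kilobases (RPKM). In control lenses the order was Ctnnb1 with 140.6 ± 8.14 RPKM, Cdh2 with 51.2 ± 8.62, Cdh1 with 26.7 ± 2.61, Pkp4 with 24.2 ± 1.10, Perp with 11.5 ± 0.46, Pkp2 with 9.75 ± 1.39, Dsc2 with 1.59 ± 0.21, Jup with 1.21 ± 0.12 and Dsp with 0.085 ± 0.011 RPKM (SD, n = 3). The adherens junction genes Ctnnb1, Cdh2 and Cdh1 were thus more abundant per length than Dsp, Jup, Dsc2, Pkp2 and Perp, and Dsp was the rarest of the 9. Among neighbours in this order, Cdh1 and Pkp4 overlapped between libraries, as did Perp and Pkp2. When the longest transcript was used as the length, Cdh1 and Pkp4, Perp and Pkp2, and Dsc2 and Jup changed places.

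In Celf1cKO lenses Dsp reached 3.74 ± 1.17 RPKM (SD, n = 3), with 2.43, 4.68 and 4.10 RPKM in libraries 1 to 3. It then ranked above Dsc2 with 2.28 ± 0.24 RPKM and Jup with 0.72 ± 0.24 RPKM, and below Pkp2 with 7.54 ± 1.26 RPKM. Its range still overlapped that of Dsc2, whose highest value was 2.56 RPKM in library 1, whereas it lay above Jup in every mutant library. The order of Ctnnb1 and Cdh2 at the top was the same in both groups.

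**Figure D3:**
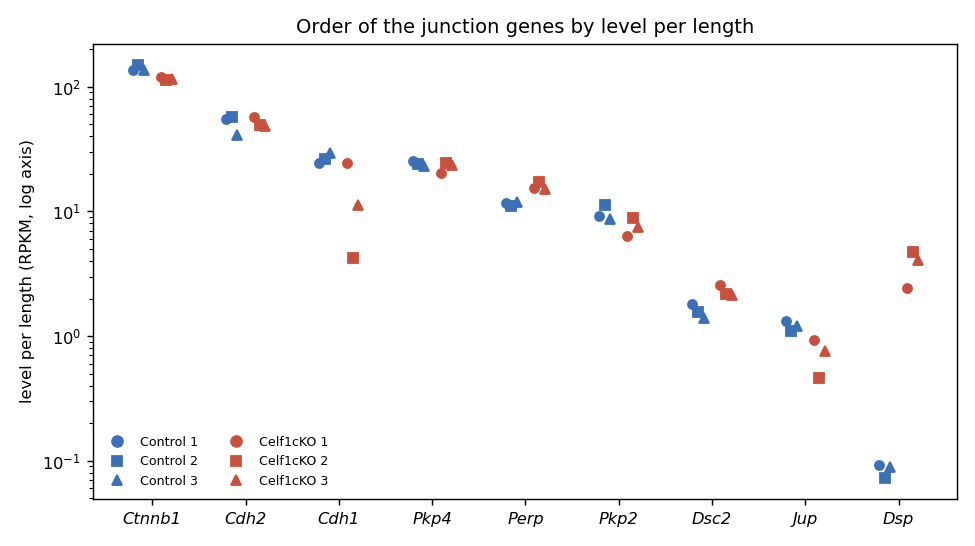
Level per length (RPKM, log axis) of each junction gene in each library, ordered by the control mean, with control in blue and Celf1cKO in red. Dsp is the lowest gene in control libraries at 0.072 to 0.092 RPKM and rises to between 2.43 and 4.68 RPKM in Celf1cKO libraries, above Jup.

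The balance of desmoplakin transcripts with those of its binding partners differed accordingly. For 1 unit of Jup per length there were 0.069, 0.066 and 0.074 units of Dsp in control libraries and 2.60, 10.1 and 5.37 units in Celf1cKO libraries 1 to 3. The ratio to Jup was above 1 in each mutant library and far below 1 in each control library. For Pkp2, the ratio was between 0.0064 and 0.010 in control libraries and between 0.39 and 0.55 in Celf1cKO libraries. For Dsc2, it was between 0.046 and 0.064 in control libraries and 0.95, 2.17 and 1.93 in Celf1cKO libraries. Against Perp the ratio rose from 0.0073 ± 0.0007 to 0.24 ± 0.07 (SD, n = 3 in each group). These ratios are taken within a library and do not depend on how libraries were scaled, and the ratio to Jup was 0.035 in control and 3.02 in Celf1cKO lenses when the longest transcript was used as the length.

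**Figure D4:**
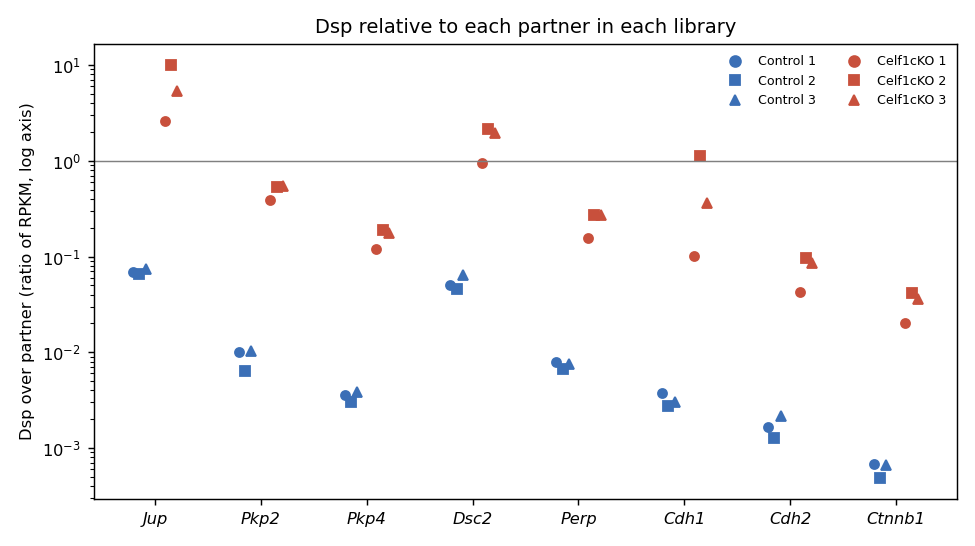
Ratio of the level per length of Dsp to that of each partner in each library (log axis), with control in blue, Celf1cKO in red and a line at a ratio of 1. All ratios are higher in Celf1cKO libraries, and those to Jup pass 1 in all 3 mutant libraries, from 2.60 to 10.1.

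The wider set of junction genes was counted over lists drawn up from their known place in the junctions. Of 119 listed genes 88 were in the table and 61 were above the expression cut-off, and 4 were called, all of them reduced, whereas 2.63% of all genes were called reduced and 4.77% elevated. None was called elevated by limma or by limma voom, while 6 had a higher and 18 a lower level at an unadjusted p-value under 0.05 in limma. At that threshold 16.3% of all genes were higher and 13.7% lower. The split was not tested, and nothing is read from it. Under total-count scaling there were 3 elevated genes (Afdn, Pard3 and Zeb1) and 1 reduced gene. The median log2 fold-change of the 88 genes was -0.10, against -0.04 over all genes. The 4 calls depended on single libraries, since none was left without control library 2 or without Celf1cKO library 3. Without either of these libraries the whole table kept 1 called gene, which was Dsp in both cases.

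The list of other catenins and adherens junction adaptors held 3 of these 4 calls. Of its 22 measured genes, 3 were reduced, Ctnna1 and Ctnna2 among them, and none was elevated. Ctnna1, which encodes the alpha-catenin of epithelia, fell from 7.64 ± 0.12 to 6.92 ± 0.25 log2 CPM (SD, n = 3), a log2 difference of -0.72 (standard error 0.14; limma adjusted p = 0.0200). Ctnna2, the alpha-catenin first known from neurons, fell from 7.04 ± 0.06 to 6.37 ± 0.27 log2 CPM (limma adjusted p = 0.0261). The alpha-catenins bind beta-catenin, whose own log2 fold-change, given above, was smaller. Ctnna1 and Ctnna2 were each called in 1 of the 6 fits that left out a library, the fit without Celf1cKO library 1. Under total-count scaling the log2 fold-changes of Ctnna1 and Ctnna2 were -0.49 and -0.44 and neither was called.

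Some genes of this list went the other way or did not pass. Afdn, which encodes afadin, the actin-binding partner of nectins, had a log2 fold-change of 0.51 (limma adjusted p = 0.0262), below the fold cut-off, and was called without control library 1. Ctnnal1, an alpha-catenin relative, had -0.37 (limma adjusted p = 0.0487), also below the cut-off. Of all genes, 11.9% passed the adjusted p-value of 0.05 whatever the fold. Vcl, which encodes vinculin, had a log2 fold-change of -0.04 and Ctnnd1, which encodes the p120 catenin, one of -0.07, and neither passed.

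Of 9 other desmosome genes listed, Pkp1 alone was measured, with values from -1.44 to 0.79 log2 CPM that overlapped between groups, and the other 8 were not analysed here. None of the 13 plakin and hemidesmosome genes was called, and 8 of the 13 were above the expression cut-off. Among the plakins, which are the relatives of desmoplakin, Plec had a log2 fold-change of 0.31 (standard error 0.20), Ppl 0.44 (standard error 0.23), Macf1 0.29, Dst -0.21 and Evpl -0.59. Evpl, with 19 to 43 reads in a library, lay below that cut-off. The elevation of Dsp was therefore not matched in size by any measured plakin. Keratins of simple and basal epithelium, the filaments that desmoplakin holds in epithelia, were represented by 4 of 8 listed genes. These lay between -2.75 and 1.08 log2 CPM over all libraries. None of the 4 was above the expression cut-off, so none could be called.

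None of 11 other cadherins was called, and 5 of the 11 were above the expression cut-off. A negative log2 fold-change was found for 10 of them, among them Cdh13 with -0.0030 and Cdh20 with -0.0021. The median was -0.39, against -0.04 over all genes. Nothing is read from the count of signs. When replicates were paired by number, Cdh4 (limma adjusted p = 0.0471) and Cdh11 (limma adjusted p = 0.0491) were called as reduced. Some of these genes are known from other cells around the lens. Cdh5, a cadherin of vascular endothelium, was 1.05 log2 CPM in Celf1cKO library 2 against 3.36 to 4.71 in the other libraries, and the summed level of the 6 endothelial markers was 85.2 to 106.5 CPM in control libraries and 103, 21.8 and 49.3 CPM in Celf1cKO libraries 1 to 3. Cdh11 was lowest in control library 2 and Celf1cKO library 2, at 1.10 and -0.04 log2 CPM. The 4 retina markers measured also had their lowest sums in these libraries, at 0.89 and 1.42 CPM against 3.14 to 19.1 CPM in the others. The part of these cells in the cadherin values was not tested.

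Of 23 tight junction genes measured, 1 was called. Cgnl1, which encodes paracingulin, a protein of tight and adherens junctions, fell from 6.96 ± 0.19 to 6.35 ± 0.23 log2 CPM (SD, n = 3), a log2 difference of -0.61 (standard error 0.14; limma adjusted p = 0.0385). Under total-count scaling it was not called, with a log2 fold-change of -0.38, and it was called in 1 of the 6 fits that left out a library. Pard3, a polarity protein that sits at tight junctions, had a log2 fold-change of 0.50 (limma adjusted p = 0.0155), below the fold cut-off, and all its mutant values exceeded all its control values. Tjp1, which encodes the scaffold ZO-1, had -0.15 and did not pass. None of 9 nectins and nectin-like genes was called, with a median log2 fold-change of 0.15. Of 5 measured transcription factors known to repress cadherin genes, Zeb1 had a log2 fold-change of 0.36 (limma adjusted p = 0.0444), below the fold cut-off. Zeb2 had 0.06 and none of the 5 was called, of which 3 were above the expression cut-off. In the lists without a call, limma voom made none either, and the genes with an unadjusted p-value under 0.05 in limma were 1 higher and 1 lower among the plakins and hemidesmosome genes, 3 lower among the cadherins, 1 higher and 1 lower among the nectins, 1 higher and 1 lower among the transcription factors and 0 among the keratins. Of all genes, 16.3% were higher and 13.7% lower at that threshold.

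**Figure D5:**
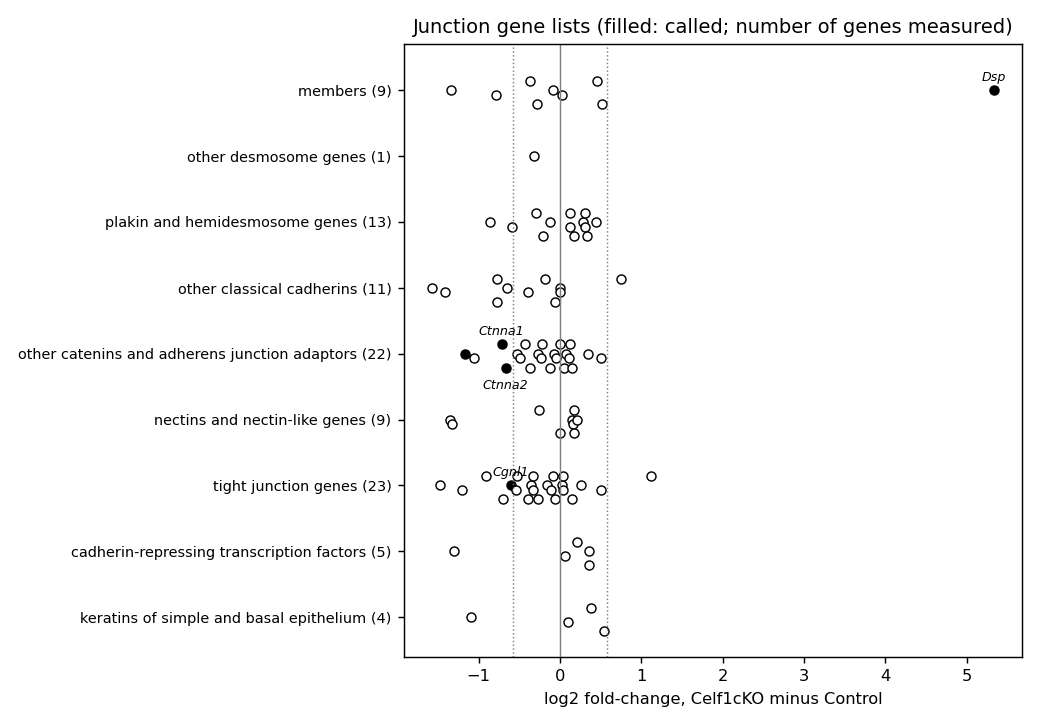
Log2 fold-change (Celf1cKO minus control) of each measured gene in the member set and in the 8 wider junction lists, with called genes filled and Dsp, Ctnna1, Ctnna2 and Cgnl1 named, the cut-off of 0.58 in either direction dotted, and the number of genes measured in parentheses. Dsp at 5.34 lies beyond every other gene plotted, and the 4 filled points of the wider lists are all on the reduced side.

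Markers of surface epithelium were looked at because skin and cornea are rich in desmosomes. Of 10 listed genes, 3 were measured (Krt1, Krt10 and Sfn), and their summed level was 6.15 to 7.40 CPM in control libraries and 4.73 to 5.75 CPM in Celf1cKO libraries. The part of such cells in the values of Dsp was not tested. Sfn had 8 to 32 reads in a library. The other 7, among them Krt5, Krt14 and Trp63, were not analysed here. Summed levels overlapped between groups for markers of macrophages, pigment cells, connective tissue, retina and red blood cells, of which 5, 5, 4, 4 and 1 were measured. In the same order, 0, 3, 0, 1 and 0 of them were above the expression cut-off, and a gene below it could not be called. None of these genes was called by limma or by limma voom, which for most of them was fixed by the cut-off. At an unadjusted p-value under 0.05 in limma, 1 connective tissue gene was lower. Of all genes, 13.7% were lower at that threshold.

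The genes next to Dsp did not share its elevation. Among the 8 nearest genes of the table on chromosome 13, 4 on each side, none was called by limma or by limma voom. Bmp6, among them, lay below the expression cut-off and could not be called. The log2 fold-changes of the 8 genes lay between -0.40 and 0.53, and 1 higher and 2 lower genes had an unadjusted p-value under 0.05 in limma. Of all genes, 16.3% were higher and 13.7% lower at that threshold. Snrnp48, which starts 6361 bases beyond the end of Dsp, had a log2 fold-change of 0.06 (standard error 0.13). Ssr1, a subunit of the translocon-associated complex of the endoplasmic reticulum, had the highest, 0.53 (limma adjusted p = 0.0191), below the fold cut-off. The neighbourhood was chosen after the values of Dsp were known.

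The 5 expressed genes whose log2 CPM followed that of Dsp most closely over the 6 libraries were Rbx1, Psap, Ddit3, Map2k1 and Hmbox1, with Pearson correlations from 0.9974 to 0.9981, a likeness that rests on the same contrast between groups and fixes their direction. Their log2 fold-changes, from 0.42 for Hmbox1 to 1.95 for Ddit3, were smaller than that of Dsp. Ddit3, which encodes a stress-induced transcription factor, went from 2.33 ± 0.04 to 4.28 ± 0.24 log2 CPM (SD, n = 3).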

How the data were processed

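The members, the gene lists and the tests were chosen with earlier results of these data known. The submitters' processing notes and the methods give STAR 2.7.8a on GRCm38.p6 and featureCounts 2.0.0, and the authors deposited, for each library and gene, log2 CPM values after edgeR scaling with a small prior count, together with their own comparison (fold-changes, F, p-values and FDR), which was not used. The authors' average log2 CPM served as the expression cut-off. Read counts were recovered from the spacing of the log2 CPM values, and 100% of them came out within 0.01 of a whole number.

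Groups were compared with limma 3.58.1 in R 4.3.3 on the deposited log2 CPM values, with the prior variance following expression and Benjamini-Hochberg adjustment over 13931 genes. Replicates are separate pools of lenses per the methods. The labels of both groups share replicate numbers, but the sources used here do not say that these mark a litter or a batch. Deviations from the group means correlated by 0.26, 0.39 and 0.38 for replicates 1, 2 and 3. Between differently numbered libraries the correlations went from -0.39 to -0.0053. Deviations within a group sum to 0, so values above 0 for same-numbered libraries bring values below 0 for the others. The same-numbered values were all above 0, and what libraries of the same number share was not tested. Because the meaning of the numbers is not given, pairing by number was used only as an alternative. The fit was tested on simulated counts for these 6 libraries and 13931 genes. It recovered 99.5%, 98% and 9% of 200 genes changed by 1.5 on the log2 scale at dispersions of 0.01, 0.05 and 0.2. Of its calls, 0%, 3.4% and 0% were false. Both groups were given the same dispersion, and that of the real libraries was not estimated. These rates are therefore not claimed for the real data. Lengths and positions came from GENCODE M21, in which 13928 gene identifiers were found. Named genes were the members, Celf1, called genes of each list (up to 6) and the 5 genes most like Dsp. Of the called genes of the lists, 1 enters the counts but is not reported here. Other genes were named after their values were seen. Alternatives were the replicate block, other variance models, scalings, cut-offs and log2(CPM + 1), voom, transcript length and each library left out. Figures were drawn with matplotlib 3.10.9.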

Additional observations from a re-analysis of the deposited data

How the results depend on the processing

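The number of genes called over the whole table was 1030, of which 664 (64.5%) were elevated, and was 1279 with the replicate number as a block, 421 without a variance trend, 1867 (89.1% elevated) with total-count scaling and 1550 without the fold cut-off. It ranged from 1 to 1916 when each library was left out. The number of junction members called, 1 as reported, was 2 with the replicate block (Dsp and Jup), 3 with total-count scaling (Dsp, Dsc2 and Perp), 2 at an adjusted p-value under 0.1 (Dsp and Jup), 2 without the fold cut-off (Dsp and Perp) and between 1 and 3 with a library left out, the 3 being Dsp, Jup and Cdh1 without Celf1cKO library 1. Of the other junction genes 4 were called, 6 with the replicate block, 1 without a variance trend, 8 without the fold cut-off and between 0 and 10 with a library left out, the lowest without control library 2 or Celf1cKO library 3 and the highest without Celf1cKO library 1. The causes were not tested. The block added Jup, Cdh4 and Cdh11 and changed no other call among the members and lists. The sign changed for Pkp4 under total-count scaling (0.13) and for Cdh2 under median centring (-0.0022), quantile normalization (-0.010), without control library 3 (-0.13) and without Celf1cKO library 1 (-0.06), its values with a library left out going from -0.13 to 0.11, and for no other named gene. Dsp was called in all 16 alternatives for its fold-change, from 4.30 to 5.62, the lowest with log2(CPM + 1). At 26 to 34 reads per control library, counting error limits the Dsp ratios.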
